A study of Mus musculus with 18 samples.

Results

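Oxidative phosphorylation genes encode the respiratory chain and the ATP synthase of mitochondria. They were taken as the protein-coding mouse genes whose symbols start with Ndufa, Ndufb, Ndufc, Ndufs, Ndufv, Uqcr, Cox4, Cox5, Cox6, Cox7, Cox8, Atp5, mt-Nd, mt-Co, mt-Cyt or mt-Atp, together with Sdha, Sdhb, Sdhc, Sdhd and Cyc1. Of the 35275 gene IDs in the expression table, 107 met this definition, 94 in the nuclear genome and 13 in the mitochondrial genome. The symbol prefixes also brought in 8 Ndufaf genes, whose products assemble complex I without being part of it. These were kept apart in the results by complex but are included among the 94 nuclear genes.

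RNA was sequenced in bulk from B cells isolated from the spleen of C57BL/6 mice. Every culture first received 1000 ng/ml of either a control antibody or mBaffR-mFc, the extracellular part of a BAFF receptor fused to an antibody Fc and used to block the part of BAFF that binds this receptor (BR3), for 1 h. Cells were then left without BAFF or given 100 ng/ml of BAFF, a survival cytokine of B cells, as its 3mer or its 60mer for 4 h. There were 6 groups with 3 libraries each. Those after the control antibody are named Ab (no BAFF), Ab_3mer and Ab_60mer, and those after mBaffR-mFc are named BRFc (no BAFF), BRFc_3mer and BRFc_60mer. All cells were thus pretreated, and no group went without a pretreatment. The labels do not say whether the 3 libraries of a group came from separate mice or cultures, so each p-value reflects the spread of these libraries alone, which may be technical. Replicate numbers follow the order of deposition.

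The chain works in steps. Complex I takes electrons from NADH and complex II takes them from succinate, both pass them through coenzyme Q to complex III, and cytochrome c carries them on to complex IV, which reduces oxygen. The proton gradient built on the way drives complex V, the ATP synthase. All complexes but complex II mix subunits from both genomes, and resting lymphocytes draw much of their ATP from this pathway. In promoters of nuclear oxidative phosphorylation genes, binding sites of NRF1 and of the ETS factor GABP are a textbook feature.

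The nuclear genes were first looked at through their promoters, since a shared feature there is independent of the expression values. RefSeq windows (GRCm38.p6) of 250 bases before to 50 bases after the start site were matched for 74 of the 94 nuclear genes, and 5 of these had 2 windows. Each motif was searched on both strands. The NRF1 motif, GCGCA followed by any base and GCGC, was found in 19 of the 74 genes (25.7%). The share was 5.19% of all 27025 genes with a RefSeq window, whether expressed in these cells or not. The ETS core CCGGAAG was found in 18 (24.3%), against 9.93% of all genes, and the YY1 motif AAGATGGC in 10 (13.5%), against 3.19%. At least 1 of the motifs was present in 40 of the 74 genes (54.1%), against 16.4% of all genes, and no ETS core overlapped a YY1 motif in these genes. A match describes the letters in the window, not binding.

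Windows of 3 genes are printed. They show the motifs in a strongly expressed complex II gene and in the complex IV isoform found at a high level in these cells. The window of the sister isoform, which was nearly absent, is printed beside them and holds no motif searched. Capitals mark the NRF1 motif in Sdha and the ETS core in Cox8a, where it reads CTTCCGG because it lies on the other strand.
Sdha, chr13:74350191-74350490, minus strand: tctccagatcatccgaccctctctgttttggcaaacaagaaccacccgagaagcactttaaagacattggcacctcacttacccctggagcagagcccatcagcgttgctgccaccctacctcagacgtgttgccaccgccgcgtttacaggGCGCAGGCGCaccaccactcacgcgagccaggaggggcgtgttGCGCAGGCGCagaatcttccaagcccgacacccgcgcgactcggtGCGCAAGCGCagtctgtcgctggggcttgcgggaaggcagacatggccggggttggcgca
Cox8a, chr19:7217567-7217866, minus strand: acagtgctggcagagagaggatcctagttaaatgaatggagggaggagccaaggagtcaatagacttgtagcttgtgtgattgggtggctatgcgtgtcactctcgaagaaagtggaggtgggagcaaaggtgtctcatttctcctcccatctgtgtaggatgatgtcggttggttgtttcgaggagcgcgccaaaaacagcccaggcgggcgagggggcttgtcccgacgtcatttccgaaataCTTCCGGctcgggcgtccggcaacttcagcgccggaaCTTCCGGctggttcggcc
Cox8b, chr7:140900397-140900696, minus strand: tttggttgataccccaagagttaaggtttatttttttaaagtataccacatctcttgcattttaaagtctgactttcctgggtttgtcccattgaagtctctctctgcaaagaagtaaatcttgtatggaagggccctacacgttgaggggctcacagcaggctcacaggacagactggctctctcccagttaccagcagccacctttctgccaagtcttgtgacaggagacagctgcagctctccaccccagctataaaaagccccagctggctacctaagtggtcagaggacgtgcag
Sdha held 3 NRF1 motifs, which started 98, 55 and 10 bases before the start site, in a window of 62.7% GC with 25 CpG pairs. Cox8a held 2 ETS cores in a window of 56.0% GC with 19 CpG pairs. Cox8b held none of the motifs searched, and its window had 48.3% GC and 2 CpG pairs. The strongly expressed genes Atp5b, Cox7c and Cox7b, at means of 915.2, 278.3 and 121.3 FPKM, also held none. The printed windows are examples, and motifs were not compared with expression level.

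The libraries held 12.2 to 25.4 M fragments, as recovered from the steps between low FPKM values (fragments per kilobase and per M fragments), with a median of 18.4 M. The B cell marker Cd79a, a signalling subunit of the B cell receptor, stood at 772.1 to 936.2 FPKM per library. It was 849.2 to 926.4 in Ab and 772.1 to 813.4 in Ab_60mer. The 6 B cell markers summed to 2733.2 to 2844.4 FPKM in Ab and 2544 to 2667.6 in Ab_60mer. After mBaffR-mFc they summed to 2650 to 2848 without BAFF and 2484.7 to 2665 with the 60mer, which overlapped. Of all genes tested, 19.2% lay wholly lower in Ab_60mer than in Ab. The 6 T cell markers summed to 3.16 to 4.89 FPKM, the 8 myeloid and dendritic markers to 159.9 to 190.3 and the 5 NK cell markers to 46.2 to 60.8, with 46.2 to 47.8 in Ab_60mer and 53.5 to 59.4 in Ab. Transcripts of connective tissue (Col1a1, Col1a2, Col3a1, Sparc, Dcn and Bgn) summed to 8.14 to 12.9 FPKM in 8 libraries, namely all 6 with BAFF 60mer and Ab_3mer replicates 1 and 2, and to at most 0.131 FPKM in the other 10. For the 60mer against no BAFF, and against the 3mer after mBaffR-mFc, the treatment and the source of these transcripts therefore cannot be told apart. In bulk RNA, fewer cells of a type and less RNA per cell cannot be told apart either.

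Among the oxidative phosphorylation genes, 3 libraries stood apart. BRFc_60mer replicate 1 had the highest mitochondrial sum, 13782 FPKM against 9111 to 11040 in the other 17 libraries. Ab_60mer replicate 1 had the next highest, 11040 FPKM. BRFc replicate 3 had the lowest nuclear sum, 7735.5 FPKM, with 80 of 88 nuclear genes and 83 of 83 cytosolic ribosomal protein genes below their mean over the 18 libraries.

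The pathway was strongly expressed, and its 2 genomes gave similar sums of the listed FPKM. The 94 nuclear genes summed to 8775 ± 399.9 FPKM and the 13 mitochondrial genes to 9894 ± 1084 FPKM (SD, n = 18 libraries), a nuclear to mitochondrial ratio of 0.895 ± 0.0899. Among nuclear genes the ATP synthase carried the largest sum, 3250 ± 144.5 FPKM over 17 genes. Complex I summed to 2154 ± 97.5 FPKM over 36 genes, complex IV to 1862 ± 113.1 over 20, complex III to 905.2 ± 46.4 over 9, and complex II to 483 ± 9.95 over its 4 genes. The 8 assembly factors summed to 120.5 ± 5.60 FPKM. Of the 107 genes, 100 reached a mean of 1 FPKM and were tested, 88 nuclear and 12 mitochondrial. The other 7 (Cox4i2, Cox6a2, Cox7b2, Cox8b, Cox8c, Ndufa4l2 and mt-Nd4l) were not.

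**Figure D1:**
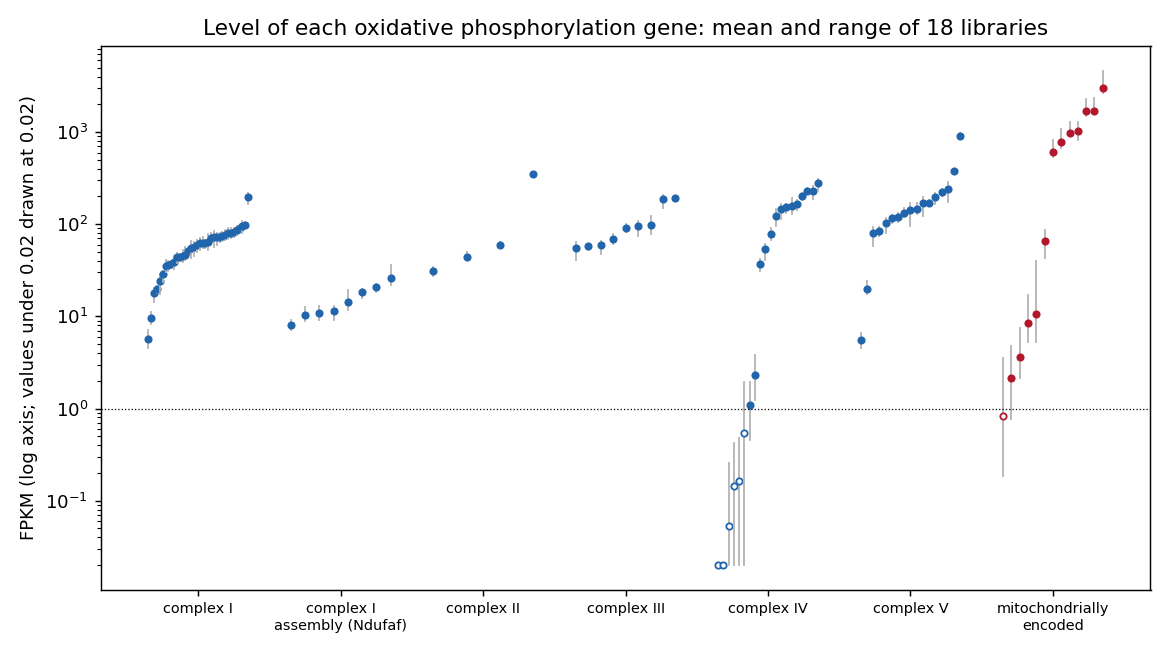
Mean FPKM of each oxidative phosphorylation gene over 18 libraries (log axis, points) with the lowest and highest library (lines), ordered by level within each nuclear complex (blue) and among mitochondrially encoded genes (red). Open points are the 7 genes with a mean under 1 FPKM, which were not tested; the complex V catalytic subunit Atp5b lies highest of the nuclear genes at 915.2 FPKM.

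The highest nuclear gene of each complex kept a narrow range over the 18 libraries. Atp5b, the catalytic beta subunit of the ATP synthase, ran from 854.4 to 974.3 FPKM with a mean of 915.2. Sdha, the flavoprotein of succinate dehydrogenase and thus of both complex II and the citric acid cycle, ran from 334.6 to 363.6 FPKM. Its group means lay between 345.0 FPKM in Ab_60mer and 352.1 in Ab, closer together than the libraries within a group. Cox7c of complex IV ran from 228.3 to 311.5 FPKM, with its lowest value in BRFc replicate 3. Ndufa3, an accessory subunit of complex I, ran from 167.0 to 217.9 FPKM, again lowest in that library. Uqcrc2, a core protein of complex III, ran from 181.9 to 202.9 FPKM. The highest assembly factor, Ndufaf8, averaged 26.3 FPKM.

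Complex IV subunits with tissue isoforms were almost wholly of the widely expressed form. Cox4i1 averaged 232 FPKM and its lung-enriched sister Cox4i2 0.0537. Cox6a1 averaged 231.9 FPKM and the heart and muscle form Cox6a2 0.146. Cox7a2 and Cox7a2l averaged 53.9 and 152.8 FPKM, and the heart and muscle form Cox7a1 2.31. Cox8a averaged 203.8 FPKM, Cox8b, the muscle and brown fat form, 0.544, and Cox8c was listed at 0 in every library. Cox6b1 averaged 158.5 FPKM against 1.09 for the testis form Cox6b2. Cox7b averaged 121.3 FPKM and Cox7b2 was listed at 0. Ndufa4, a subunit of complex IV despite its name, averaged 147.1 FPKM and its paralog Ndufa4l2 0.164. In none of these pairs did the libraries of the 2 isoforms overlap.

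The mitochondrial genes fell into 2 sets. The cytochrome oxidase subunit mt-Co1 averaged 3016 FPKM, the complex III gene mt-Cytb 1691, and the complex I genes mt-Nd1 1672, mt-Nd6 1039, mt-Nd2 988.6, mt-Nd5 785.2 and mt-Nd4 610.5. The complex I gene mt-Nd3 was listed at 66.4 FPKM, the complex V genes mt-Atp6 at 10.6 and mt-Atp8 at 2.15, the complex IV genes mt-Co2 at 8.53 and mt-Co3 at 3.64, and mt-Nd4l at 0.825. Apart from mt-Nd6, these genes are transcribed together as a long precursor.

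The listed levels were set beside the sequence shared with nuclear copies, and they followed it only in part. Of the 100-base stretches of mt-Nd3, mt-Nd4l, mt-Co2, mt-Co3 and mt-Atp6, 97.6% to 99.9% also occur in annotated pseudogenes of the nuclear genome (GENCODE M21), and all 5 were in the low set. The share was 60.8% for mt-Nd4, 30.8% for mt-Co1, 3.2% for mt-Nd2 and 0 for mt-Nd1, mt-Nd5, mt-Nd6 and mt-Cytb. Of these, mt-Nd4 was in the high set despite its share. The 204-base gene mt-Atp8 was low with no shared stretch of that length. It overlaps mt-Atp6 at bases 7927 to 7969 only. The median of 47 fragments per library for mt-Co3 and 102 for mt-Co2, against 83479 for mt-Co1, also makes the low set imprecise. How the authors' counting treated shared reads is not given in the sources used here, and its part in these levels was not tested. The levels of the low set are therefore uncertain, and so are the mitochondrial sum and its ratio to the nuclear sum.

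The mitochondrial sum was compared over groups as a description, with no test. It was 9703, 9216 and 9160 FPKM in the Ab libraries, 9439, 9899 and 10215 in Ab_3mer, and 11040, 9779 and 9622 in Ab_60mer. It was 9111, 9221 and 9240 FPKM in BRFc, 9345, 10041 and 9906 in BRFc_3mer, and 13782, 9998 and 9378 in BRFc_60mer. After mBaffR-mFc all libraries with either BAFF form lay above all libraries without BAFF, whereas after the control antibody the groups overlapped. Without BRFc_60mer replicate 1, the remaining BRFc_60mer libraries lay within the range of the 6 libraries with the 3mer.

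**Figure D2:**
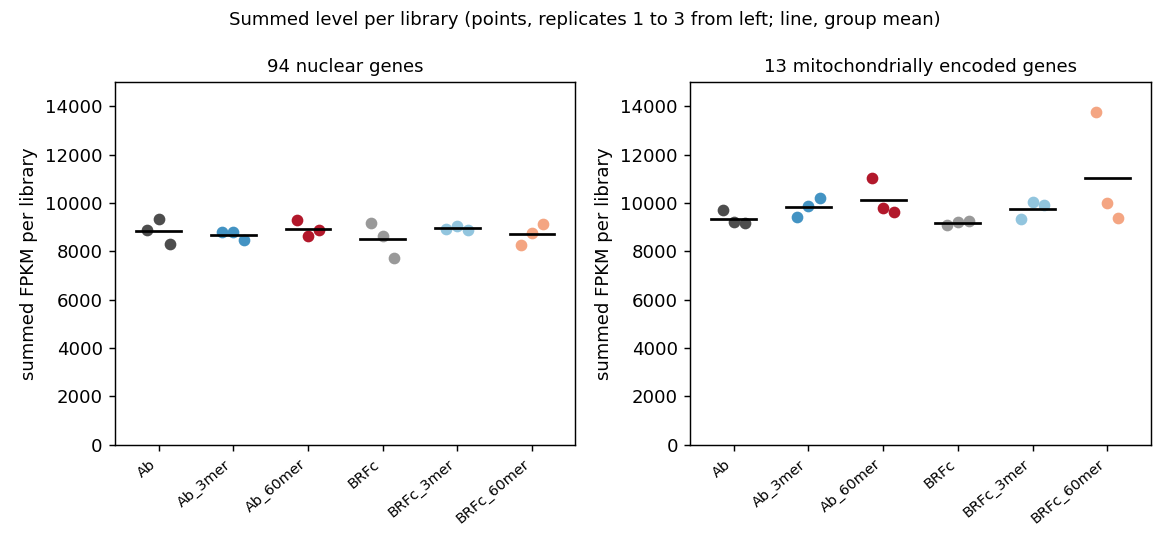
Summed FPKM per library of the 94 nuclear (left) and 13 mitochondrially encoded (right) oxidative phosphorylation genes, with a point for each library and a line at the mean of each group (n = 3). Nuclear sums lie between 7735.5 and 9324 FPKM in every group; the mitochondrial sum of BRFc_60mer replicate 1, 13782 FPKM, lies above all others.

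The question of the main comparison was which genes respond to BAFF 60mer after the control antibody. Of the 100 genes tested, mt-Nd6 rose and Cyc1 fell with the 60mer, and 98 did not pass the test (limma, Benjamini-Hochberg adjusted p under 0.05). That is 2 of 100, against a background of 14% of the 11646 genes tested. By direction, 1 gene rose against a background of 5.04%, and 1 fell against 8.94%. The libraries did not overlap for 6 genes that were higher, against 13.5% of all genes, and for 3 that were lower, against 19.2%. The median difference, in log2(FPKM + 1) as for all differences here, was 0.012 for the 88 nuclear genes, 0.115 for the 12 mitochondrial genes and -0.019 for all genes. Without Ab_60mer replicate 1 the mitochondrial median was 0.036 and the nuclear median -0.010, and without Ab replicate 3 the nuclear median was -0.035.

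The complex I subunit gene mt-Nd6 is the only protein gene of the mitochondrial genome on its other strand. It was listed at 938.3, 955.6 and 826.7 FPKM in Ab and at 1282, 1010 and 1104 in Ab_60mer. All 3 libraries with the 60mer were above all 3 without, by little for replicate 2 and by most for replicate 1. The difference was 0.32 ± 0.0938 (SE; 95% interval 0.12 to 0.51; limma adjusted p = 0.0343), a rise of 24.4%. In Ab_3mer the values were 1002, 1023 and 1036 FPKM, also above every Ab library, with a difference from Ab that did not pass.

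The call on mt-Nd6 did not hold without Ab replicate 1 (limma adjusted p = 0.0658), Ab replicate 3 (0.127), Ab_60mer replicate 1 (0.167) or Ab_60mer replicate 3 (0.0516), nor after a correction for GC content and length (0.124) or with only the compared groups fitted (0.0688). Set against Ab_3mer replicates 1 and 2, which also held connective tissue transcripts, the 60mer difference was 0.15 (limma adjusted p = 0.561), and, since whether counting used strand is not given in the sources used here, its reads cannot be told apart from those of opposite-strand transcripts there.

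Cyc1 encodes cytochrome c1, the heme subunit of complex III that hands electrons to cytochrome c. It stood at 73.7, 71.4 and 78.5 FPKM in Ab and at 63.5, 66.3 and 67.2 in Ab_60mer. All libraries with the 60mer were below all libraries without. The difference was -0.18 ± 0.0548 (SE; 95% interval -0.30 to -0.064; limma adjusted p = 0.0375), so that Cyc1 fell by 11.7%. Ab_3mer lay between them at 68.3, 69.7 and 69.8 FPKM. After mBaffR-mFc the values were 71.2, 67.5 and 71.9 FPKM without BAFF and 61.3, 65.2 and 73.5 with the 60mer, which overlapped.

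The call on Cyc1 did not hold without Ab replicate 1 (limma adjusted p = 0.0815), Ab replicate 3 (0.137), Ab_60mer replicate 1 (0.14) or Ab_60mer replicate 2 (0.0776). The difference was -0.071 (0.665) against Ab_3mer replicates 1 and 2, which held connective tissue transcripts, and -0.017 (0.841) after a correction for GC content and length.

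The next genes of complex I missed the threshold. Ndufa12, an accessory subunit, stood at 63.8, 59.2 and 61.7 FPKM in Ab and at 78.3, 70.1 and 68.3 in Ab_60mer, which did not overlap. Its difference was 0.23 ± 0.0783 (limma adjusted p = 0.0639), and 0.25 (0.0243) after the correction for GC content and length. For mt-Nd5, a core membrane subunit, the values were 726.9, 683.5 and 733.9 FPKM in Ab and 937.1, 798.9 and 833.6 in Ab_60mer, likewise without overlap. Its difference was 0.26 ± 0.0953 (limma adjusted p = 0.0792), and it passed with only the compared groups fitted (0.0492). The remaining mitochondrial genes differed by -0.20 (mt-Atp6) to 0.36 (mt-Co3), none past the threshold. For mt-Atp6, 1 library, Ab replicate 2 at 39.7 FPKM, lay far above the other 17, which ran from 5.32 to 17.8, and without it the difference was 0.63 (limma adjusted p = 0.175).

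**Figure D3:**
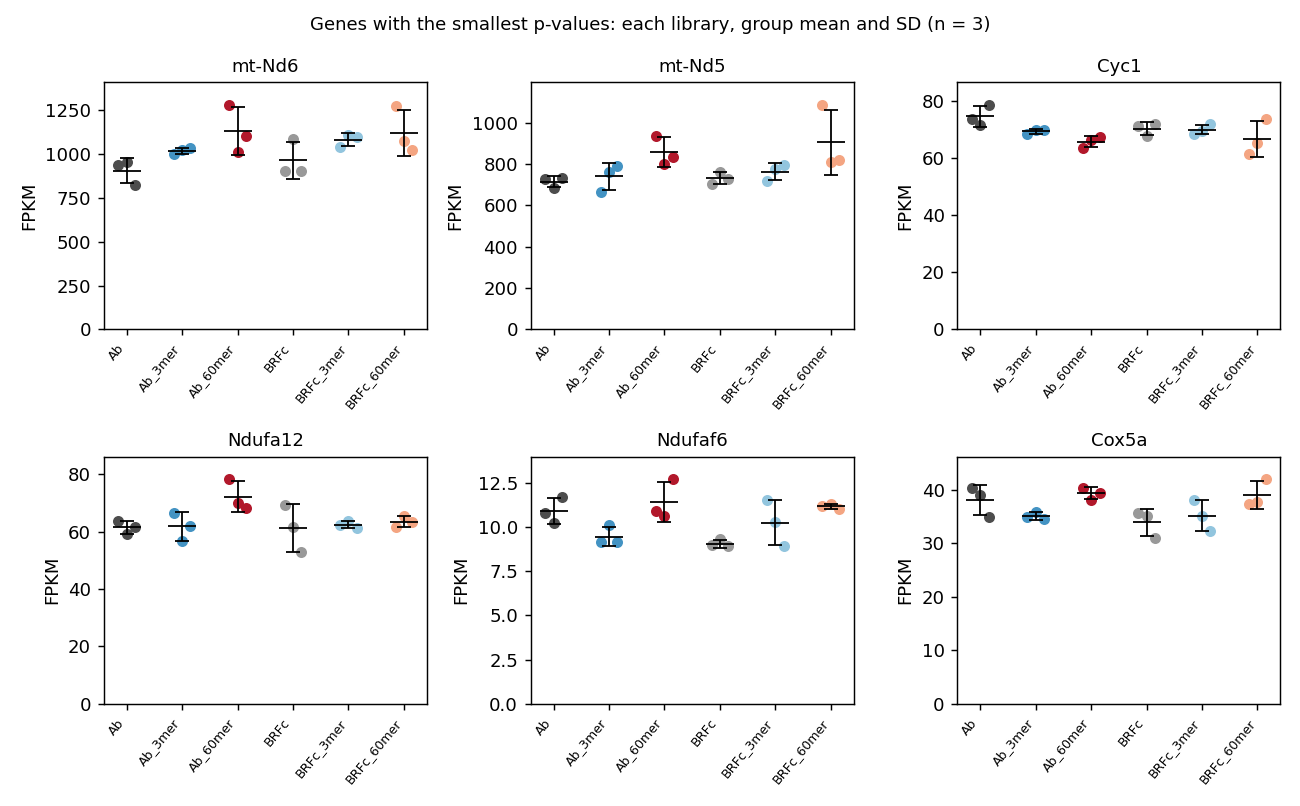
FPKM of mt-Nd6, mt-Nd5, Cyc1, Ndufa12, Ndufaf6 and Cox5a in each of the 18 libraries (points, replicates 1 to 3 from left), with the mean and SD of each group (n = 3). Every axis starts at 0; Ab_60mer lies above Ab for mt-Nd6 and below it for Cyc1, at 65.7 against 74.6 FPKM on average.

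By complex, none of 36 nuclear genes of complex I, 8 assembly factors, 4 of complex II, 14 of complex IV and 17 of complex V passed, and 1 of 9 did in complex III. The nuclear differences ran from -0.19 (Ndufaf8) to 0.23 (Ndufa12). The 95% interval lay within a 1.5-fold difference either way for 88 of 88 nuclear genes and within 1.25-fold for 71 of them. These folds, here and below, are of FPKM + 1. For the lowest genes, such as Cox6b2 at a mean of 1.09 FPKM, they bound the FPKM itself less closely. Over all genes tested those shares were 88.6% and 57.5%. The 60mer differences of nuclear genes were small, with a median size of 0.0574 against 0.109 over all genes, at a similar precision, a median SE of 0.0792 against 0.0778. For the mitochondrial genes 7 of 12 intervals lay within 1.5-fold, so differences there were bounded less closely.

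**Figure D4:**
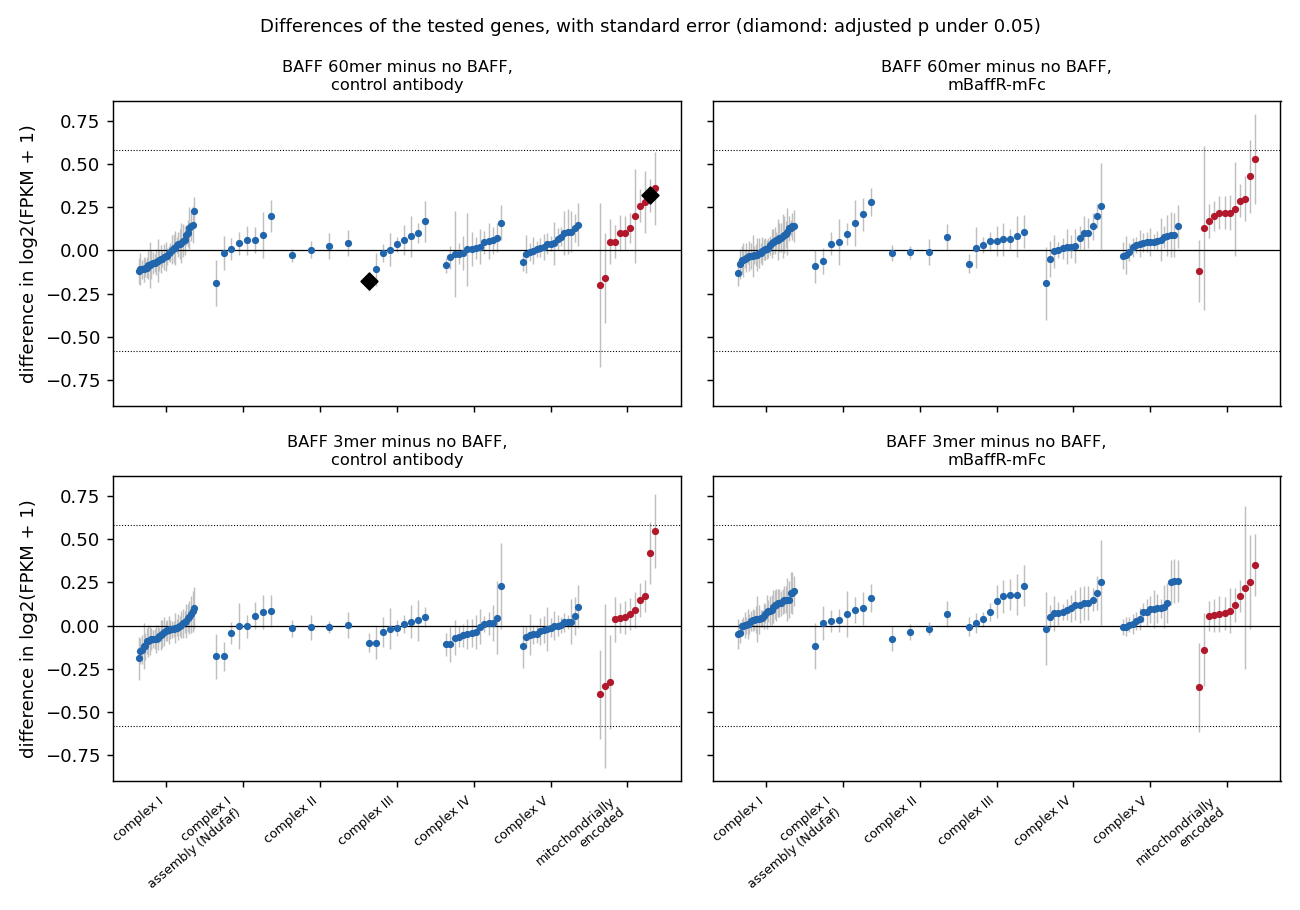
Difference in log2(FPKM + 1) of each of the 100 tested oxidative phosphorylation genes with its standard error, for BAFF 60mer (top) and 3mer (bottom) against no BAFF after control antibody (left) or mBaffR-mFc (right), ordered by size within each complex. Black diamonds mark mt-Nd6 and Cyc1, the only genes past the threshold, dotted lines mark 1.5-fold in FPKM + 1, and nuclear genes (blue) lie close to 0 compared with the mitochondrial genes (red).

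After mBaffR-mFc, none of the 100 genes passed for the 60mer against no BAFF, against a background of 4.83% of all genes. At an unadjusted p under 0.05, 10 were higher and 0 lower, against 6% and 12.7% of all genes. Of the 10, 6 are mitochondrial. The smallest p belonged to Ndufaf6, a complex I assembly factor, at 8.96, 9.30 and 8.90 FPKM in BRFc and 11.2, 11.3 and 11 in BRFc_60mer. The groups did not overlap and each was tight, and the difference was 0.28 ± 0.0815 (limma adjusted p = 0.0634). BRFc was also the lowest group for this gene, at 9.05 ± 0.214 FPKM against 10.9 ± 0.756 in Ab (SD, n = 3).

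Of the next genes, mt-Nd5 stood at 705.7, 760.6 and 728.4 FPKM in BRFc and at 1086, 810.2 and 818.0 in BRFc_60mer. The difference was 0.29 ± 0.0953 (limma adjusted p = 0.0926), and 0.15 (0.345) without BRFc_60mer replicate 1. Cox5a, a complex IV subunit, stood at 35.7, 35.1 and 31.1 FPKM in BRFc and at 37.4, 37.8 and 42 in BRFc_60mer, a difference of 0.20 ± 0.0684 (limma adjusted p = 0.116). Libraries did not overlap for either gene.

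The abundant mitochondrial genes moved together in BRFc_60mer replicate 1. There mt-Co1 stood at 4638 FPKM, mt-Cytb at 2320, mt-Nd1 at 2285 and mt-Nd4 at 821.4, each the highest of 18 libraries. The other BRFc_60mer libraries stood at 3099 and 2750 FPKM for mt-Co1 and at 1630 and 1556 for mt-Nd1, within the range of the remaining groups. With that library the 60mer differences were 0.30 for mt-Co1, 0.22 for mt-Cytb, 0.22 for mt-Nd1 and 0.17 for mt-Nd4. Without it they were 0.081, 0.055, 0.051 and 0.004. The same library had a nuclear sum of 8254 FPKM, and 1.71% of its fragments fell on mitochondrial genes, against 1.11% to 1.33% elsewhere.

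The test of the difference between pretreatments called none of the 100 genes for the 60mer, against a background of 0.00859%. The smallest p belonged to Ndufb3, an accessory subunit of complex I, with a difference between the 60mer effects of 0.23 ± 0.103 (limma adjusted p = 0.901). For mt-Nd6 and Cyc1, the effects after mBaffR-mFc were 0.22 ± 0.0938 and -0.077 ± 0.0548, and neither passed. Without BRFc_60mer replicate 1 they were 0.12 (limma adjusted p = 0.585) and -0.020 (0.899).

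BAFF 3mer against no BAFF gave no call among the 100 genes, nor among all 11646 (background 0%), after either pretreatment. After the control antibody 2 genes were higher and 1 lower at an unadjusted p under 0.05, against 1.31% and 4.11% of all genes. These were mt-Co3 at 0.55 ± 0.214, mt-Nd3 at 0.42 ± 0.179 and Ndufaf6 at -0.18 ± 0.0815 (limma adjusted p = 0.881 for each). The difference of mt-Co3 was 0.23 without Ab_3mer replicate 3, and that of mt-Nd3 was 0.25 without Ab replicate 1 and 0.69 without Ab replicate 2. The 2 mitochondrial genes belong to the low set with near-identical nuclear copies. The 95% interval lay within 1.5-fold for 87 of 88 nuclear genes.

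After mBaffR-mFc, 3 of the 100 genes were higher with the 3mer at an unadjusted p under 0.05 and 0 lower, against 1.46% and 1.87% of all genes. They were Cox5b of complex IV at 0.15 ± 0.0654, Ndufb4 of complex I at 0.20 ± 0.0851 and the complex V gene Atp5k at 0.26 ± 0.123 (limma adjusted p = 0.999 for each). Without BRFc replicate 3 these differences were 0.10, 0.10 and 0.11. The median over the 88 nuclear genes was 0.079, with 76 above 0 and 12 below, and that over 83 cytosolic ribosomal protein genes was 0.137, with 82 above 0. Without BRFc replicate 3 the nuclear median was 0.015, with 52 above 0, and the ribosomal protein median 0.021. In the interaction of pretreatment and 3mer, none of the 100 genes passed (background 0%), and the smallest p belonged to Ndufaf6, at 0.34 ± 0.115 (limma adjusted p = 0.981).

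The 60mer was compared directly with the 3mer, both forms at the same dose and time. All 60mer libraries held connective tissue transcripts, as did Ab_3mer replicates 1 and 2, whereas no BRFc_3mer library summed above 0.131 FPKM. After the control antibody none of the 100 genes passed, against a background of 4.81%, with 4 higher and 1 lower at an unadjusted p under 0.05, below the 9.2% and 11.1% of all genes. The smallest p belonged to Ndufaf6 at 0.24 ± 0.0815 (limma adjusted p = 0.101), Ndufa12 at 0.22 ± 0.0783 (0.119) and Cox5a at 0.16 ± 0.0684 (0.194). For Cox5a the values were 34.9, 35.9 and 34.6 FPKM in Ab_3mer and 40.4, 38.2 and 39.5 in Ab_60mer, which did not overlap. For Ndufa12, Ab_3mer stood at 66.6, 56.8 and 62.1 FPKM, below every Ab_60mer library.

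After mBaffR-mFc none of the 100 genes passed for 60mer against 3mer either, against a background of 5.16%, with 5 higher and 2 lower at an unadjusted p under 0.05, below the 7.63% and 11.4% of all genes. The smallest p belonged to mt-Co2, at 5.71, 5.56 and 5.24 FPKM in BRFc_3mer and 9.91, 7.83 and 17 in BRFc_60mer. The difference was 0.89 ± 0.26 (limma adjusted p = 0.0591), and 0.60 (0.197) without BRFc_60mer replicate 3, the highest library. It was followed by mt-Co3 at 0.57 ± 0.214 (limma adjusted p = 0.149) and mt-Nd3 at -0.47 ± 0.179 (0.157). These 3 genes differed in direction although they lie on the same precursor, and all 3 are in the low set.

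The forms of pretreatment were compared within each BAFF condition. Without BAFF, none of the 100 genes passed, nor did any gene of the table (background 0%). The smallest p belonged to Ndufaf6 at -0.24 ± 0.0815, Ndufs7 at -0.16 ± 0.056 and Ndufc2 at -0.20 ± 0.0775, all of complex I or its assembly (limma adjusted p = 0.829 for each). The nuclear median was -0.060, with 78 of 88 genes lower after mBaffR-mFc, and the ribosomal protein median -0.082, with 79 of 83 lower. Without BRFc replicate 3 the medians were 0.008, with 40 of 88 lower, and 0.023, so the direction rested on that library.

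With the 3mer, none of the 100 genes differed between pretreatments at the adjusted threshold (background 0%), and mt-Co3 had the smallest p at -0.54 ± 0.214, followed by Cox5b at 0.14 ± 0.0654 and Uqcr10 at 0.25 ± 0.119 (limma adjusted p = 0.998 for each). Without Ab_3mer replicate 3 the difference of mt-Co3 was -0.22 and that of Cox5b 0.089. With the 60mer none passed against a background of 0.0258%. The smallest p belonged to Ndufa12 at -0.18 ± 0.0783, Ndufv1 at 0.12 ± 0.0614 and mt-Atp8 at -0.52 ± 0.273 (limma adjusted p = 0.993 for each). Without Ab_60mer replicate 1 the differences of Ndufa12 and mt-Atp8 were -0.12 and -0.27, that of mt-Atp8 was -0.24 without BRFc_60mer replicate 1, and that of Ndufv1 was 0.069 and 0.19 without Ab_60mer replicates 2 and 3 and 0.078 without BRFc_60mer replicate 3. For Ndufa12, BRFc_60mer stood at 61.6, 65.5 and 63.3 FPKM, below every Ab_60mer library. In the moderated F test over all 6 groups, 0 of the 100 genes passed, against a background of 8.93%, and 7 had an unadjusted p under 0.05, against 23.6% of all genes.

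Counts of genes whose libraries did not overlap were also compared with those over all genes in the remaining comparisons. For the 60mer against no BAFF after mBaffR-mFc, 5 of the 100 genes lay wholly higher against a background of 7.13%, and 0 wholly lower against 13.4%. For the 3mer against no BAFF, 3 were higher (background 4.01%) and 5 lower (7.44%) after the control antibody, and 8 were higher (3.56%) and 0 lower (5.62%) after mBaffR-mFc. For the 60mer against the 3mer, 7 were higher (11.8%) and 5 lower (12.1%) after the control antibody, and 4 were higher (10.1%) and 13 lower (14.1%) after mBaffR-mFc. Between pretreatments, mBaffR-mFc against the control antibody gave 0 higher (5%) and 3 lower (5.29%) without BAFF, 11 higher (5.43%) and 1 lower (4.61%) with the 3mer, and 0 higher (4.1%) and 4 lower (4.31%) with the 60mer. Cytosolic ribosomal protein genes, with 35 of 83 wholly higher between pretreatments with the 3mer and 13 of 83 wholly higher for the 3mer after mBaffR-mFc, showed the same directions as the oxidative phosphorylation genes there.

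Within single libraries, the median nuclear gene and the median cytosolic ribosomal protein gene deviated in the same direction in the libraries that stood apart. In BRFc replicate 3 the median deviation from the 18-library mean was -0.18 for nuclear genes and -0.29 for ribosomal protein genes, and in BRFc_60mer replicate 1 it was -0.085 and -0.11. In Ab replicate 2 it was 0.10 and 0.11. The mitochondrial median in BRFc_60mer replicate 1 was 0.34, opposite in sign to the nuclear one. Over the 88 nuclear genes, Spearman's rho of mean transcript length with the deviation in BRFc replicate 3 was 0.48, so shorter transcripts were the lower ones there. All 88 points come from 1 library. The part of RNA quality or library preparation in these deviations was not tested.

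**Figure D5:**
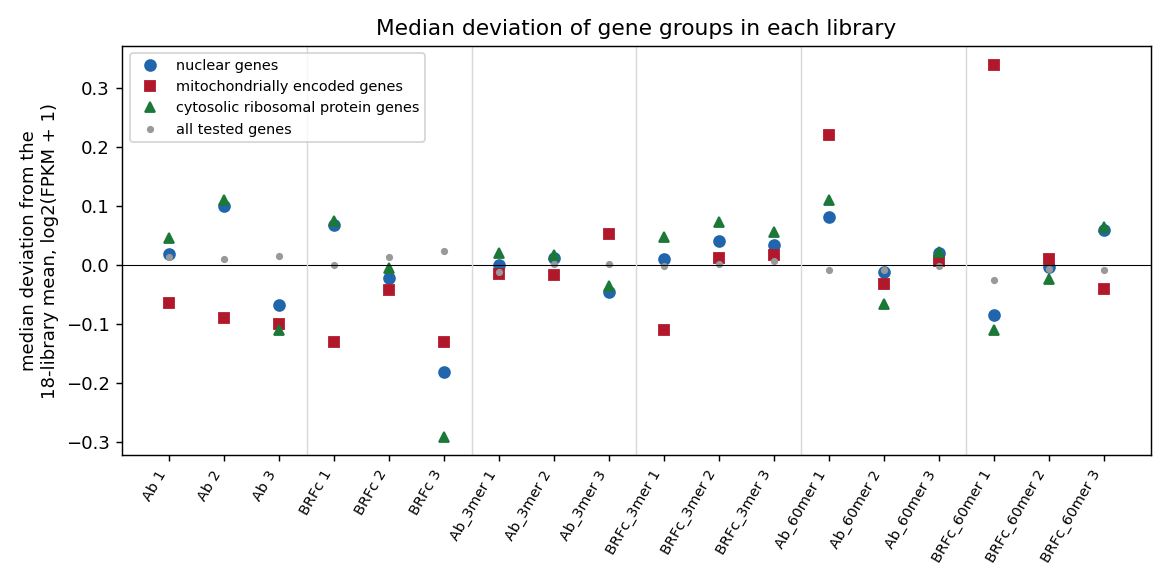
Median deviation in log2(FPKM + 1) from the 18-library mean in each library, for nuclear (blue circles) and mitochondrially encoded (red squares) oxidative phosphorylation genes, cytosolic ribosomal protein genes (green triangles) and all tested genes (grey dots). BRFc replicate 3 lies lowest for nuclear genes at -0.18, and BRFc_60mer replicate 1 highest for mitochondrial genes at 0.34.

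Neighbouring pathways were counted in the same fits. With the 60mer after the control antibody, 1 of 17 citric acid cycle genes rose and 3 fell, 2 of 39 assembly factors of other kinds rose and 2 fell, and 2 of 31 genes of mitochondrial transcription and biogenesis rose and 1 fell. Of 15 genes of coenzyme Q synthesis and cytochrome c, 0 rose and 3 fell. Of 76 mitochondrial ribosomal protein genes 2 rose and 4 fell, while 0 of 83 cytosolic ones passed. The background is the same 5.04% that rose and 8.94% that fell.

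Gabpb1, which encodes a beta subunit of GABP, the ETS factor whose core motif was searched above, rose in all 4 comparisons of the 60mer with no BAFF or the 3mer. It averaged 41.8 ± 2.23 FPKM in Ab, 43.1 ± 2.93 in Ab_3mer and 52.1 ± 5.63 in Ab_60mer, and 42 ± 1.38, 41.1 ± 1.60 and 50.6 ± 2.07 in the matching groups after mBaffR-mFc (SD, n = 3). The differences were 0.31 and 0.26 against no BAFF and the 3mer after the control antibody, and 0.26 and 0.29 after mBaffR-mFc (limma adjusted p = 0.0089 to 0.0372). The comparisons share libraries. In those with no BAFF, and with the 3mer after mBaffR-mFc, only the 60mer libraries held connective tissue transcripts. When each of the 6 compared libraries was left out in turn, the calls failed in 0, 5, 5 and 3 refits in that order. Against Ab_3mer replicates 1 and 2 the difference was 0.21 (limma adjusted p = 0.18).

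Lrpprc, whose product stabilises mitochondrial mRNAs, rose in 3 of these 4 comparisons, by 0.18 and 0.17 after the control antibody and by 0.16 against the 3mer after mBaffR-mFc (limma adjusted p = 0.00826 to 0.0246; 0, 4 and 5 of 6 refits failed). Against Ab_3mer replicates 1 and 2 its difference was 0.17 and did not pass (limma adjusted p = 0.0826). Coq8a, which acts in coenzyme Q synthesis, fell in all 4, at -0.17, -0.20, -0.19 and -0.18 (limma adjusted p = 0.0105 to 0.0223; 3, 3, 1 and 4 of 6 refits failed). It averaged 94 ± 3.65 FPKM in Ab and 83.6 ± 3.67 in Ab_60mer (SD, n = 3). Against Ab_3mer replicates 1 and 2 the difference of Coq8a was -0.20 (limma adjusted p = 0.0453). For Coq2, another enzyme of that synthesis, Ab_60mer differed by -0.25 from Ab (limma adjusted p = 0.00123) and by -0.056 (0.655) from Ab_3mer replicates 1 and 2. For Dmac2, an assembly factor, these differences were -0.44 (limma adjusted p = 0.00172) and -0.25 (0.159). For Fastk, of the mitochondrial transcription and biogenesis genes, they were -0.33 (limma adjusted p = 0.00491) and -0.11 (0.555). The Ab_3mer libraries had also received the 3mer, so the references differ in more than the connective tissue transcripts. In Ab_3mer, Coq2, Dmac2 and Fastk averaged 66.1, 80.7 and 45.2 FPKM, against 76.1, 89 and 52.6 in Ab.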

How the data were processed

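The authors' sequencing provider determined expression as FPKM per gene, per the labels' protocols; the aligner, counting tool, genome build and strand setting are not given in the sources used here. Library totals were recovered from the FPKM steps of single-transcript genes (91.8% to 93.7% of values whole to within 0.1 fragment). Of the low values of genes with several transcripts, 64.5% were whole with the mean transcript length, against 24.0% with the union of exons.

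Symbols came from GENCODE M21 (34490 IDs matched). The 11646 genes averaging 1 FPKM or more across the libraries were tested as log2(FPKM + 1) with limma 3.58.1 in R 4.3.3, using 1 fit of 6 groups, a variance trend and Benjamini-Hochberg adjustment over all genes. FPKM differences of low genes are understated on this scale. Of the 9 contrasts, 2 interactions and F test, only the contrast Ab_60mer minus Ab was tried on simulated data. The genes and lists were chosen with earlier results of these data known. Text names all mitochondrial genes, all genes past the threshold, the highest gene of each complex and complex IV isoforms. It also names the 3 smallest p-values of each contrast where none passed, the smallest of each interaction, and up to 4 passing genes per other list.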

Additional observations from a re-analysis of the deposited data

How the results depend on the processing

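No paired analysis was possible because the labels give no replicate numbers that groups share. For the 60mer against no BAFF after the control antibody, where 1 gene rose and 1 fell, the count that rose was 0 with no filter on low values, with connective tissue transcripts or the library total as a term, and against the Ab_3mer libraries with those transcripts. It stayed at 1 with the GC content and length correction (Ndufa12) and with only the compared groups fitted (mt-Nd5), where mt-Nd6 did not pass. It ran from 0 to 2 when single libraries were left out. The count that fell was 0 under the same settings, with median-of-ratios rescaling, with a correction for GC content and length and with only the compared groups fitted, and ran from 0 to 1 when single libraries were left out. After mBaffR-mFc, the 60mer against no BAFF gave 1 higher gene instead of 0 with median-of-ratios rescaling (Ndufaf6) and with the GC content and length correction (mt-Nd5), and 0 to 1 when libraries were left out. The 60mer against the 3mer there gave 1 higher gene with a minimum mean of 5 FPKM (mt-Co2) or the connective tissue term (mt-Co3), 2 with the GC content and length correction (mt-Co2 and Ndufa10), 0 to 1 when libraries were left out, and 1 lower gene (mt-Nd3) with only the compared groups fitted. The F test gave 0 to 2 when libraries were left out. In all, 350 of 384 counts stayed within 1.5 times the reported one, most of them at 0. Of the differences followed through the alternatives, those of 3 genes changed sign, none of them past the threshold. For the 60mer after the control antibody, mt-Atp6 went from -0.20 to 0.27 with the connective tissue term and 0.31 against the Ab_3mer libraries with those transcripts, and ran from -0.71 to 0.63 when single libraries were left out. Ndufaf8 went to 0.016 against those Ab_3mer libraries. After mBaffR-mFc, Cyc1 went to 0.021 with the GC content and length correction. The causes of the changes were not tested. Depth limits mt-Atp8 and mt-Nd4l most, at a median of 7 and 4 fragments per library.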
